A study of Mus musculus with 6 samples.

Results

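The control libraries of this RNA sequencing series described the baseline transcriptome of splenic regulatory T (Treg) cells. The members were the 3 libraries labelled Junb fl/fl, of 6 libraries in the series, and no genotype was compared. They came from C57BL/6 mice in which both Junb alleles are flanked by loxP sites and in which no Cre recombinase was present, so that Junb had not been removed by design. CD4+CD25+ cells were sorted from spleens of sex-matched animals 6 to 12 weeks of age, and polyadenylated RNA was sequenced as strand-specific paired reads. CD25 is also displayed by activated conventional T cells, so the gate did not select on Foxp3 itself. For splenic CD4+CD25+ cells isolated for stimulation, the paper reports that nearly all expressed Foxp3. It gives no such share for these libraries. The libraries are called control 1, control 2 and control 3 here. Nothing in the labels says whether they came from separate mice, and the spread between them may be technical. Levels were given as FPKM (fragments scaled to the length of the transcript and to the number of mapped fragments) for 37305 genes, of which 22380 were protein-coding, and genes were ranked among the latter within each library.

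Treg cells are CD4 T cells that restrain immune responses under the forkhead transcription factor Foxp3. They depend on interleukin 2 from other cells, which they bind through a receptor of high affinity, and they restrain their neighbours through surface receptors such as CTLA-4, through adenosine and through inhibitory cytokines. Resting T cells are known to burn fuels mainly in mitochondria, while glycolysis rises upon activation.

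The 3 libraries were not alike. Control 1 had an FPKM total of 496684, against 811691 and 862049 in control 2 and 3. The ranks of expressed genes correlated less between control 1 and control 2 or 3 (Spearman's rho across 9868 genes, 0.905 and 0.900) than between control 2 and 3 (0.982). Genes are not independent replicates, and these values are descriptions. The smallest values fell on steps that stood for about 1 fragment. On a transcript of 1 kilobase, 1 fragment was worth about 0.0531, 0.106 and 0.150 FPKM in control 1, 2 and 3. If the values were scaled to mapped fragments alone, control 2 and 3 had about 0.501 and 0.355 of the depth of control 1. The step then implies about 18800000, 9440000 and 6680000 fragments. Any further scaling between libraries would alter these values. The median ratios of control 1, 2 and 3 to the geometric mean of the libraries were 0.996, 1.012 and 0.999 as deposited. Whether such a scaling had been applied was not tested. The files hold no read counts, so these depths are estimates. As a number of fragments, each estimate is below the minimum number of reads per sample that the paper states. A fragment here is a pair of reads, however. The paper does not say whether its number counts single reads or pairs, or only mapped ones. The values can therefore not be compared directly. The sample name of control 1 also lacked the lane suffix of the other names, and no label states a run. Rescaling the libraries to equal totals (TPM) left ranks untouched but lifted control 1. The median log2 ratio of expressed genes in control 1 over the mean of the other libraries was -0.09 as deposited and 0.66 after rescaling. An order of libraries given below therefore refers to FPKM as deposited.

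A total of 9868 protein-coding genes (44.1%) were expressed, defined as at least 1 FPKM in all 3 libraries, and 8567 (38.3%) were silent, defined as under 0.1 FPKM in all 3. Of the silent genes, 5820 were listed at 0 in every library. The other 3945 genes were low or variable. Without control 1 the counts were 10063 expressed and 9443 silent genes. Expressed genes had a median of 15.2 FPKM, against 0.432 FPKM over all protein-coding genes. At least 10 FPKM in all 3 libraries was reached by 5578 genes and at least 100 FPKM by 513 genes. In bulk RNA, a low level in every cell and a high level in few cells cannot be told apart. A value of 0 states only that a gene was listed at 0 at this depth.

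**Figure D1:**
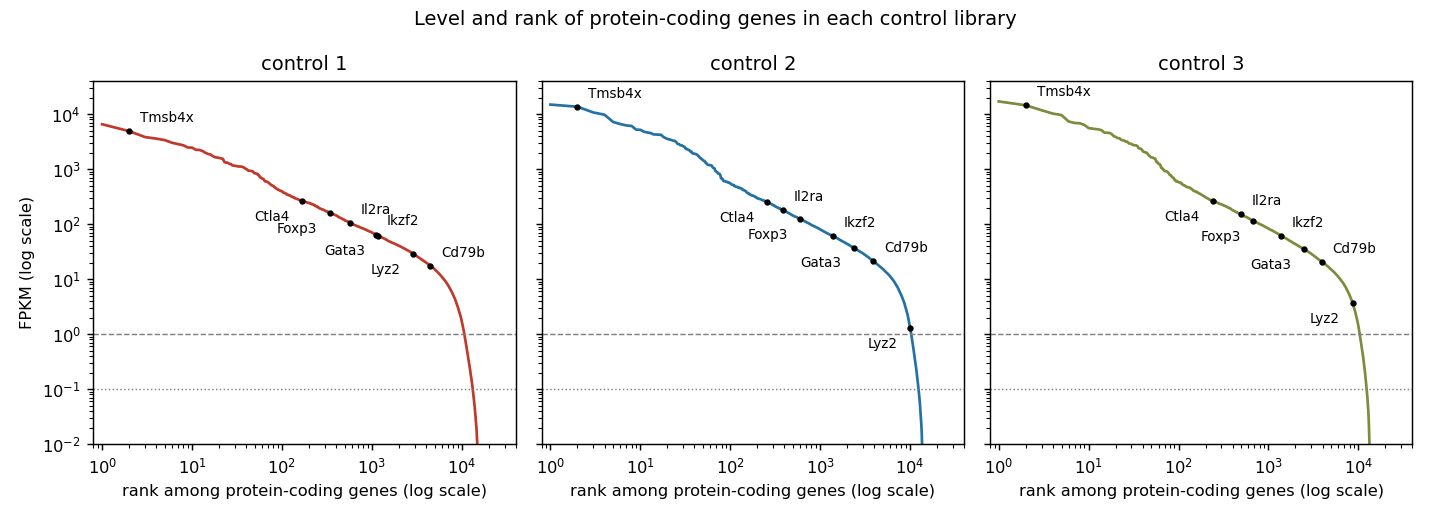
Level in FPKM against rank among 22380 protein-coding genes in each control library, both on log scales, with 8 genes marked as points; the dashed line is at 1 FPKM and the dotted line at 0.1 FPKM. The Treg markers Ctla4, Il2ra, Foxp3 and Ikzf2 lie between ranks 169 and 1382 in all 3 libraries, and the myeloid gene Lyz2 falls from 28.9 FPKM in control 1 to 1.27 FPKM in control 2.

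Of the 20 protein-coding models of best median rank, 8 were genes of ribosomal proteins, 5 were unnamed or pseudogene-like models that copy such genes, 3 were genes of the mitochondrial genome and 4 were others. Tmsb4x, which encodes the actin-binding peptide thymosin beta 4, stood at rank 2 in each library, with 4903, 13640 and 14500 FPKM in control 1, 2 and 3. Control 1 was the lowest, also with TPM. The mitochondrial cytochrome oxidase subunit mt-Co1 had 6549, 10730 and 11770 FPKM. B2m, the light chain of MHC class I, had 3828, 6098 and 5080 FPKM. These values placed mt-Co1 at rank 1, 3 and 3 and B2m at rank 3, 8 and 14. Actb, cytoskeletal beta actin, was the steadiest of the named genes at this height, with 3364, 3543 and 3668 FPKM. The translation factor Eef1a1 ran from 2465 to 5580 FPKM, and the other leading mitochondrial genes were mt-Cytb and mt-Nd1. The 20 highest models of each library held 13.6%, 22.6% and 24% of all protein-coding FPKM, and 565, 213 and 172 genes were needed to reach 50% of it.

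The unnamed leaders were near-identical to ribosomal genes. Gm9846, at rank 1 in control 2 and 3, matched the ribosomal protein gene Rps27 at 100% identity over 99.1% of its length. Gm9846 was listed at 3588, 14930 and 17030 FPKM and Rps27 itself at 5.97, 14.6 and 10.4 FPKM. Gm7536, Gm8759, Gm9843 and Rplp2-ps1 matched Rpl27a, Rpl31, Fau and Rplp2 at 99.3% to 100% identity, and each of these genes was likewise listed far below its copy. Over all gene types, models with at least 90% identity to a named ribosomal protein gene held 14.9%, 30.7% and 29.7% of the FPKM total, while the 84 named ribosomal protein genes held 5.22%, 9.03% and 9.32%. The sources used here do not say how reads with several matches were shared out, so levels of genes with near-identical copies are uncertain, in the rank of leaders and in the rank of apparently low genes.

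The label of the cells was first checked on the 4 defining Treg markers. Foxp3 (chrX:7156802-7172369, mm9) had 161, 123 and 115 FPKM in control 1, 2 and 3, at ranks 339, 602 and 682. Il2ra (chr2:11564419-11614818), which encodes CD25, the alpha chain of the interleukin 2 receptor and the gene of the sort itself, had 107, 178 and 152 FPKM. Ctla4 (chr1:60943844-60972676), which encodes a receptor that binds and removes CD80 and CD86 from antigen-presenting cells, had 266, 251 and 265 FPKM. Ctla4 ranked 169, 257 and 240 and varied little (260 ± 8.54 FPKM, SD, n = 3). Ikzf2 (chr1:69577788-69732534), which encodes the Ikaros-family factor Helios, had 64.7, 61.2 and 61.8 FPKM (62.6 ± 1.89, SD, n = 3). All 4 were thus far above the median expressed gene in every library, and within each library Ctla4 stood above Foxp3 and Foxp3 above Ikzf2.

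All 22 members of the Treg identity list were expressed (100%, against 44.1% of all protein-coding genes), with a median of 106 FPKM. The list was led by Izumo1r, listed as Folr4, which encodes folate receptor 4, a surface protein abundant on Treg cells of mice. Izumo1r had 271, 557 and 625 FPKM and was over 2-fold lower in control 1 than in both others. The costimulatory receptors of the TNF receptor family came next. Tnfrsf4, which encodes OX40, had 308, 339 and 377 FPKM. Tnfrsf18, which encodes GITR, had 239, 290 and 403 FPKM, and Tnfrsf9, which encodes 4-1BB, had 134, 147 and 201 FPKM. All 3 were lowest in control 1 and highest in control 3, though highest in control 1 with TPM, and the ranges of Tnfrsf4 and Tnfrsf18 overlapped. Il2rb, the beta chain of the interleukin 2 receptor, had 306, 262 and 235 FPKM. The actin-capping gene Capg had 262, 235 and 265 FPKM. The co-receptor Cd4 had 241, 141 and 139 FPKM, the highest in control 1.

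**Figure D2:**
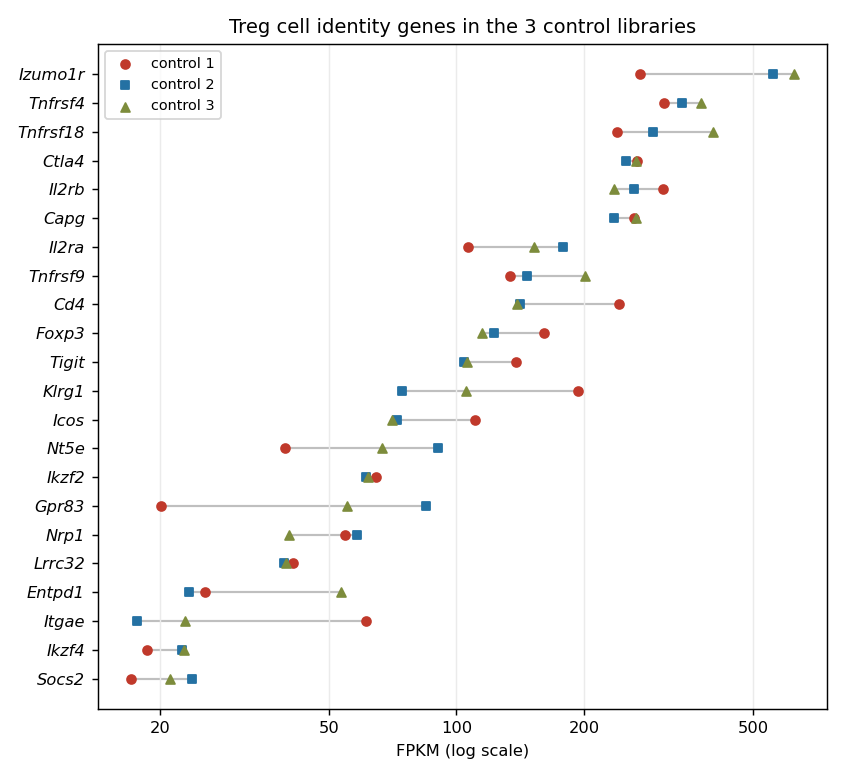
FPKM of the 22 Treg cell identity genes on a log scale, ordered by median, with a symbol for each control library and a grey line over their range. All 22 lie above 10 FPKM in every library; Gpr83, Itgae and Klrg1 spread most, while Ctla4, Ikzf2 and Lrrc32 hardly move.

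The rest of the identity list stood lower. The inhibitory receptor gene Tigit had 138, 104 and 106 FPKM and the costimulatory receptor gene Icos 111, 72.5 and 70.3 FPKM. Klrg1, a marker of terminally differentiated Treg cells, had 193, 74.3 and 106 FPKM. Control 1 was highest for all 3 genes. The ectoenzymes that turn extracellular ATP into adenosine moved apart. Entpd1, which encodes CD39, had 25.6, 23.5 and 53.6 FPKM, with control 3 apart from the others. Nt5e, which encodes CD73, had 39.6, 90.5 and 66.9 FPKM and was lowest in control 1, though not with TPM. Lrrc32, which encodes GARP, the anchor of latent TGF-beta, was nearly equal in all libraries at 41.3, 39.2 and 39.6 FPKM. Nrp1, a co-receptor used to tell thymus-derived Treg cells in mice, ran from 40.4 to 58.5 FPKM. Itgae, the CD103 integrin chain, had 61.2, 17.7 and 22.9 FPKM and was over 2-fold higher in control 1, while the orphan receptor gene Gpr83, with 20.1, 84.7 and 55.2 FPKM, was over 2-fold lower there. Ikzf4, which encodes Eos, ran from 18.6 to 22.8 FPKM and the signalling inhibitor Socs2 from 17.1 to 23.8 FPKM. Of the 21 neighbouring pairs in the order of medians, 20 had overlapping ranges, and only Capg and Il2ra were apart.

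Sequence before the start site is printed for 4 genes that span the range of levels, the leader Tmsb4x, the receptors Ctla4 and Il2ra, and the silent cytokine gene Il9. Each run is the 250 bases before the start from RefSeq (GRCm38.p6, a later build than that of the files), read 5′ to 3′ on the strand of the gene, with every CG dinucleotide in capitals.
Tmsb4x (chrX:167209219-167209468, minus strand): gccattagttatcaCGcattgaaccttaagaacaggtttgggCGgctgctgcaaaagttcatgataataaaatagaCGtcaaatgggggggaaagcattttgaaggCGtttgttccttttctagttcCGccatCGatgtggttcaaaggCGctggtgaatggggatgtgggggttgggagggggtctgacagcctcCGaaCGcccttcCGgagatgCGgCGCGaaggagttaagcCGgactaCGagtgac
Ctla4 (chr1:60908775-60909024, plus strand): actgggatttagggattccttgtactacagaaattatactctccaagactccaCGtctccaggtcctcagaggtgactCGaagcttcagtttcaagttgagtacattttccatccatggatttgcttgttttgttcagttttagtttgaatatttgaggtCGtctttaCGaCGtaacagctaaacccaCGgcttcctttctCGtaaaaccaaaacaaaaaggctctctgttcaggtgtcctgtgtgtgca
Il2ra (chr2:11642542-11642791, plus strand): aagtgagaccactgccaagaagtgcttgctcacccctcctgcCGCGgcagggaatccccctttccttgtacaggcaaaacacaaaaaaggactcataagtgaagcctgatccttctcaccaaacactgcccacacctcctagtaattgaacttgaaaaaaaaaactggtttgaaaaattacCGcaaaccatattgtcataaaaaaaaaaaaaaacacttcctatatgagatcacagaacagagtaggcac
Il9 (chr13:56482258-56482507, minus strand): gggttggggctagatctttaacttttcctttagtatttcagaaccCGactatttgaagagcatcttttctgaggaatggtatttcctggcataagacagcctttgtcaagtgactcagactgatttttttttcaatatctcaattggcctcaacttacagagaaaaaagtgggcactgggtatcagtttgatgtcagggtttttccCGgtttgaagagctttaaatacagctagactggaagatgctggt
The run of Tmsb4x held 15 CG dinucleotides, that of Ctla4 7, that of Il2ra 3 and that of Il9 2, against a median of 6 over 32841 promoters (quartiles 2 and 16). Of all these promoters, 32.7% held the Sp1 box GGGCGG on either strand, and among the 4 runs Tmsb4x did. The ETS core ACTTCC, held by 19.7% of all promoters, was found in Il2ra. The CCAAT box, held by 33.9%, was found in Il9. TATAAA, held by 12.4%, was found in none of the 4. Such a match is a description of letters and not a site.

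All 16 genes of the CD4 T cell and T cell receptor list were expressed, with a median of 239 FPKM, and 14 had a median of at least 100 FPKM. The adhesion receptor gene Cd2 had 367, 666 and 760 FPKM. Cd3d and Cd3g, chains of the receptor's CD3 complex, had 212, 569 and 704 FPKM and 370, 602 and 554 FPKM. The phosphatase Ptprc, which encodes CD45, had 404, 530 and 486 FPKM. Control 1 was lowest for each of these 4 genes, with TPM only for Cd2 and Cd3d, and Cd3d alone of the 16 was over 2-fold lower there.

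Among 215 receptor genes, 130 (60.5%) were expressed and 21 (9.77%) were silent, with a median of 4.64 FPKM. By median level the cytokine receptors were led by the 3 chains of the interleukin 2 receptor. Il2rg, the common gamma chain, had 466, 435 and 434 FPKM at rank 135 by median, above Il2rb and Il2ra, and its range did not overlap theirs. Il7r, the alpha chain of the interleukin 7 receptor, had 95.7, 246 and 146 FPKM and overlapped Il2ra. Ifngr1, a chain of the interferon gamma receptor, had 148, 136 and 136 FPKM. Il2ra, at 107 FPKM in control 1, was below Ifngr1 and below Il21r (109 FPKM) there, and it was below Il7r in control 2. The whole list of 65 cytokine receptors had 37 expressed (56.9%) and 10 silent members (15.4%). The silent ones included Il5ra, Prlr, Ghr, Lepr, Osmr and Il22ra1, receptors for interleukin 5, prolactin, growth hormone, leptin, oncostatin M and interleukin 22. Il13ra2 and Il28ra were listed at 0 in all 3 libraries.

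Homing receptors were led by a few genes. Cxcr4, the receptor of CXCL12, had 255, 186 and 158 FPKM. Ccr7, which guides cells into lymph nodes, had 230, 129 and 133 FPKM. Both were highest in control 1, and their ranges overlapped. Of 21 chemokine receptors 12 were expressed (57.1%), and only Cxcr1, a neutrophil receptor, was silent. Cxcr3 and Ccr2, linked to inflamed tissue, followed with medians of 45.6 and 33.6 FPKM. Among integrins and selectins, Itgb7, the beta chain of the gut-homing integrin, had 410, 301 and 280 FPKM. Itgb2 was level at 212, 212 and 210 FPKM, and Selplg, the ligand of P-selectin, ran from 198 to 254 FPKM. Of this list 15 of 31 were expressed (48.4%), and Itga8, Itga11 and Itgb6 were silent.

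S1pr1, the receptor through which T cells leave lymphoid organs along sphingosine 1-phosphate, had 132, 159 and 146 FPKM. By median it led the list of lipid, purine and other G protein-coupled receptors, which leaves out the chemokine receptors. The lysophospholipid receptor gene P2ry10 came second with 82.2, 121 and 114 FPKM, followed by Gpr132 and S1pr4. The ranges of S1pr1 and P2ry10 did not overlap. Of 41 such receptors 29 were expressed (70.7%), and the adenosine receptor gene Adora1, the histamine receptor gene Hrh1 and the fatty acid receptor gene Ffar3 were silent. Among CD28-family and inhibitory receptors, 17 of 19 were expressed (89.5%) and none was silent. After Ctla4 came Cd5, a brake on T cell receptor signals, with 214, 253 and 241 FPKM, and Cd96, with 49.2, 114 and 109 FPKM. Of 26 TNF receptor family genes 15 were expressed (57.7%). Cd27, a costimulatory receptor, came after Tnfrsf4 and Tnfrsf18 with 180, 237 and 259 FPKM, and Ngfr, Tnfrsf11b and Eda2r were silent. Of 12 toll-like receptors 5 were expressed (41.7%), near the 44.1% of all protein-coding genes. Only 1 was silent (8.33%, against 38.3% of all). Tlr1 led with 19.6, 42.2 and 44.6 FPKM, followed by Tlr7, Tlr2 and Tlr6 with medians of 2.26 to 8.92 FPKM.

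Of 58 cytokine and chemokine genes 29 were expressed and 8 were silent (13.8%), so the share expressed was near that of all protein-coding genes. Ltb, which encodes lymphotoxin beta, led with 343, 414 and 491 FPKM and was lowest in control 1, though highest there with TPM. Tgfb1, which encodes the suppressive cytokine TGF-beta 1, had 125, 93.3 and 103 FPKM. Its paralogue Tgfb2 was silent. Il16, a ligand of CD4, had 70.7, 106 and 95.5 FPKM and the chemokine gene Ccl5 87.9, 52.1 and 84.3 FPKM. The range of Il16 overlapped those of Tgfb1 and Ccl5, while Tgfb1 was above Ccl5 in every library. Il3, Il9, Il17f, Il23a, Il24, Il27 and Il34 were silent, with Il3 and Il9 listed at 0 throughout.

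Of 17 suppressive mediators 16 were expressed (94.1%), with a median of 21.6 FPKM. Ctla4, Tgfb1 and Nt5e led them. Penk, which encodes an opioid precursor, had 40.5, 55.8 and 54.1 FPKM. Genes outside the rule for naming were looked up after their values had been seen. Il10, which encodes interleukin 10, had 49.6, 9.43 and 8.93 FPKM and so rested on control 1, as did the growth factor gene Areg with 22.1, 2.84 and 1.88 FPKM. The 2 chains of interleukin 35 were unlike. Ebi3 had 20.3, 17.7 and 19.5 FPKM while Il12a had 0.391, 0 and 0.121 FPKM. Il2, the cytokine Treg cells consume and hardly make, had 2.83, 2.34 and 2.84 FPKM.

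Of 245 transcription factor genes 162 were expressed (66.1%) and 42 were silent (17.1%), with a median of 10.2 FPKM. Ets1, a factor of T cell differentiation, had the highest median, with 334, 334 and 299 FPKM at rank 172 by median. The AP-1 subunits followed. Junb had 921, 298 and 256 FPKM. Jund had 295, 210 and 191 FPKM, and Fos had 190, 274 and 155 FPKM. Junb was over 2-fold higher in control 1 than in both others, while in control 2 and 3 it was below Ets1. The next were Tcf7, with 200, 182 and 176 FPKM, and Klf2, with 141, 230 and 164 FPKM. Tcf7 encodes TCF-1, a factor of naive and memory T cells, and Klf2 keeps T cells quiescent and switches on S1pr1, described above. Jun, Nfkb1, Irf1 and Id2 stood just above Foxp3, which was in place 11 of the 25 highest factors.

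**Figure D3:**
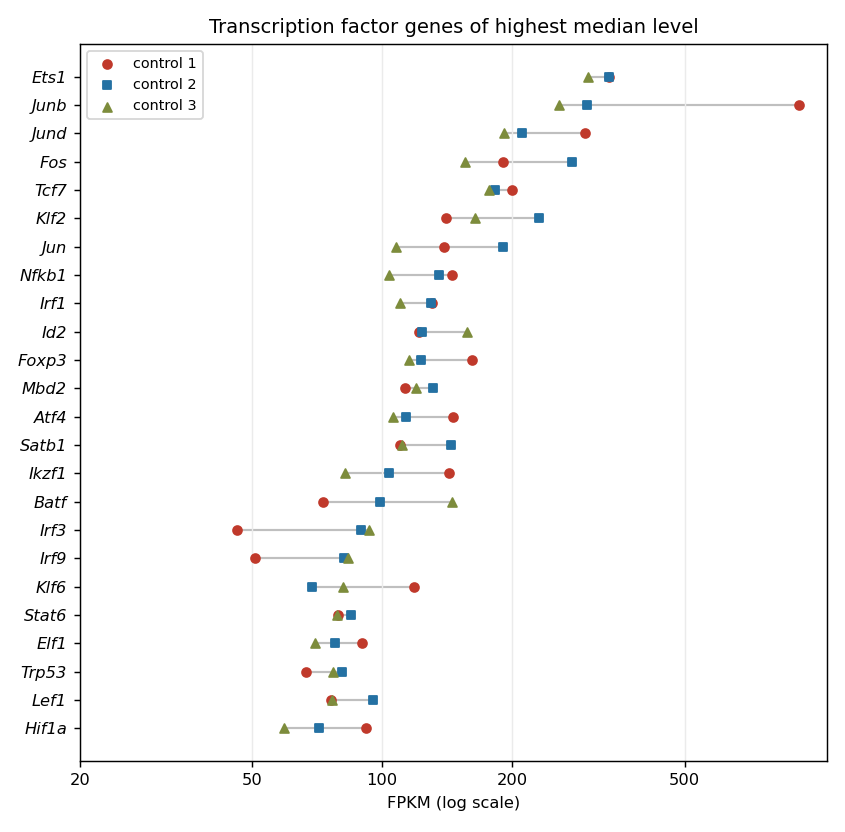
FPKM of 24 of the 25 transcription factor genes of highest median level on a log scale, with a symbol for each control library and a grey line over their range. Foxp3 lies in the middle of the order, and Junb in control 1 stands apart at 921 FPKM.

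All 24 neighbouring pairs among these 25 factors overlapped in range, so the order within the leading group is loose. The remaining ones included Mbd2, Atf4, Satb1, Ikzf1, Batf, Irf3, Irf9, Klf6, Stat6, Elf1, Trp53, Lef1 and Hif1a. Batf, an AP-1 partner of IRF4 that effector Treg cells need, had 73.0, 98.7 and 145 FPKM. Satb1, a chromatin organiser, had 110, 144 and 111 FPKM. Without control 1, 24 of the 25 factors stayed in the group. All 16 IRF and STAT factors were expressed (median 47.0 FPKM), as were 9 of 10 NF-kB and NFAT factors, where Nfatc4 was at 0. Of ETS and RUNX factors 15 of 18 were expressed (83.3%) and Erg, an endothelial and stem cell factor, was silent. Among forkhead factors 11 of 20 were expressed (55.0%). Foxp3 was followed by Foxo1, with 86.6, 58.0 and 47.9 FPKM, and Foxp1, both known to keep T cells quiescent. The silent forkhead genes included Foxa2, Foxa3, Foxc1, Foxf1a, Foxl2 and Foxn1, factors of endoderm, mesoderm, ovary and thymic epithelium.

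Among the factors, the largest silent group was in the SMAD, T-box, HMG and homeobox list, where 15 of 36 genes (41.7%) were silent and 14 (38.9%) expressed, shares close to those of all protein-coding genes. Tox, Smad4, Smad2 and Smad7 led it with medians of 23.0 to 41.1 FPKM. The silent ones included the stem cell factors Sox2 and Pou5f1, the neural crest and brain factors Sox10 and Pax6, the heart factor Nkx2-5 and the pancreatic factor Pdx1. Of these, all but Pax6 were listed at 0 in every library. Among 40 nuclear receptors 20 were expressed and 12 silent (30.0%). Nr4a1, an immediate target of T cell receptor signals, was the leader with 491, 71.1 and 70.0 FPKM and was over 2-fold higher in control 1. Nr1h2, the oxysterol receptor LXR beta, had 49.3, 44.6 and 38.5 FPKM. The retinoic acid receptor genes Rara and Rarg, with 66.2, 32.0 and 27.6 FPKM and 50.4, 26.5 and 25.8 FPKM, overlapped in range. The receptors of progesterone (Pgr), of liver (Hnf4a, Nr1i2, Nr1i3) and of the gonads (Nr5a1, Nr0b1) were silent.

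The master factors of helper lineages were at the level of minor factors. Of the 16 genes in the helper lineage list 9 were expressed (56.2%). Gata3, the Th2 factor that Treg cells also use, had 61.9, 37.4 and 35.0 FPKM. The interferon gamma gene Ifng had 20.4, 14.3 and 18.1 FPKM. Bcl6, the factor of follicular helper cells, had 9.43, 10.3 and 9.06 FPKM. Foxp3 was above all of these in every library, and its range did not overlap theirs. The interleukin 17 gene Il17a, chosen after its values were seen, had 0.559, 0 and 0 FPKM, while Il9 and Il17f were silent.

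Of 225 metabolic genes 178 were expressed (79.1%) and 23 silent (10.2%), with a median of 19.8 FPKM, the highest median of the receptor, factor, secreted and metabolic groups. The respiratory chain and ATP synthase list had the highest levels, with a median of 124 FPKM and 24 of 42 genes at a median of at least 100 FPKM. Cox4i1, a subunit of cytochrome oxidase, had 592, 1170 and 1620 FPKM. Atp5e had 320, 904 and 1240 FPKM, and Ndufa4 had 241, 512 and 564 FPKM. Atp5b, the catalytic subunit of the ATP synthase, had 596, 516 and 438 FPKM. Of the 42 genes 8 were over 2-fold lower in control 1 and 1 was higher. Over all genes with at least 1 FPKM in any library, 5.14% were lower and 6.35% higher there. With TPM none remained over 2-fold lower, so that the size of this difference depended on scaling. Cyct, the cytochrome c of testis, was silent.

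The tricarboxylic acid cycle had 22 of 23 genes expressed (95.7%), with a median of 56.8 FPKM, and none silent. Mdh2, the mitochondrial malate dehydrogenase, led with 163, 188 and 161 FPKM, followed by Idh3g with 89.2, 170 and 136 FPKM, and by Mdh1 and the succinate dehydrogenase subunit Sdhb. Fatty acid oxidation had 17 of 23 expressed (73.9%) at a lower level, with a median of 16.1 FPKM. Hadha, of the trifunctional protein, had 46.8, 47.2 and 44.8 FPKM, and Acaa2, Acsl5 and Echs1 followed. The silent members were Cpt1c and the liver gene Fabp1. Ucp2, an uncoupling protein of the inner membrane, had 429, 448 and 441 FPKM, while its brown fat paralogue Ucp1 was at 0.

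Glycolysis had 18 of 26 genes expressed (69.2%) and 5 silent (19.2%), with a median of 3.90 FPKM and a wide range. Ldha, which makes lactate, had 295, 271 and 328 FPKM. Aldoa had 225, 200 and 223 FPKM, and pyruvate kinase Pkm, listed as Pkm2, had 241, 158 and 157 FPKM. Gpi1 had 127, 96.5 and 102 FPKM. The silent ones included isozymes of other tissues, such as Pklr of liver and Ldhc and Pgk2 of testis. The glucose transporter gene Slc2a3 (GLUT3), with 36.2, 30.3 and 32.2 FPKM, was above Slc2a1 (GLUT1), with 25.1, 16.0 and 15.8 FPKM, and their ranges did not overlap. The insulin-dependent Slc2a4 was at 0, and Slc2a2 and Slc2a5 were silent.

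Of 24 pairs of isozymes or paralogues compared, 22 had ranges that did not overlap. Hexokinase 1 was above hexokinase 2 (Hk1 40.7, 31.1 and 27.0 FPKM, Hk2 4.48, 2.24 and 0.706 FPKM). The platelet form of phosphofructokinase, Pfkp, at 29.4 to 37.9 FPKM, was above the liver form Pfkl, at 12 to 17.9 FPKM. Cpt1a, the gate of fatty acids into mitochondria, ran from 21.4 to 25.8 FPKM, and its muscle form Cpt1b reached at most 1.23 FPKM. Ldha was 17.2, 6.24 and 8.04 times as high as Ldhb, the form that takes up lactate. The pairs that overlapped were Pgam1 with Pgam2 and Rara with Rarg.

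Some enzymes that every cell uses were listed low. Gapdh had 2.24, 7.56 and 4.02 FPKM, Pgk1 9.53, 7.43 and 11.9 FPKM and the electron carrier Cycs 1.10, 1.60 and 0.404 FPKM. Impdh2, the guanine synthesis enzyme that proliferating lymphocytes use, had 1.63, 1.68 and 1.79 FPKM. These genes were picked out after their values were seen. Beside Impdh2 stood 1 pseudogene model, Gm15210, at 99.8% identity, with 77.3, 76.6 and 77.8 FPKM. The 8 copies of Cycs summed to 42.1, 71.2 and 97.5 FPKM and the 4 copies of Pgam1 to 35.0, 29.8 and 15.2 FPKM. The 91 copies of Gapdh summed to 4.51, 6.33 and 5.63 FPKM. Whether reads with many matches were left out is not given, so this sum does not settle the level of Gapdh. Of 43 list members or leading genes whose copies summed to at least 1 FPKM, the copies were above the gene in all 3 libraries for 19. Among these was the cytokine gene Mif, with 42.6, 27.2 and 30.1 FPKM itself and 275, 287 and 264 FPKM in 4 copies. Whether reads of these genes were placed on the copies was not tested. Among the isozyme pairs, the order of Impdh2 below Impdh1 and the overlap of Pgam1 with Pgam2 rest on this. The median of the glycolysis list is uncertain for the same reason.

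**Figure D4:**
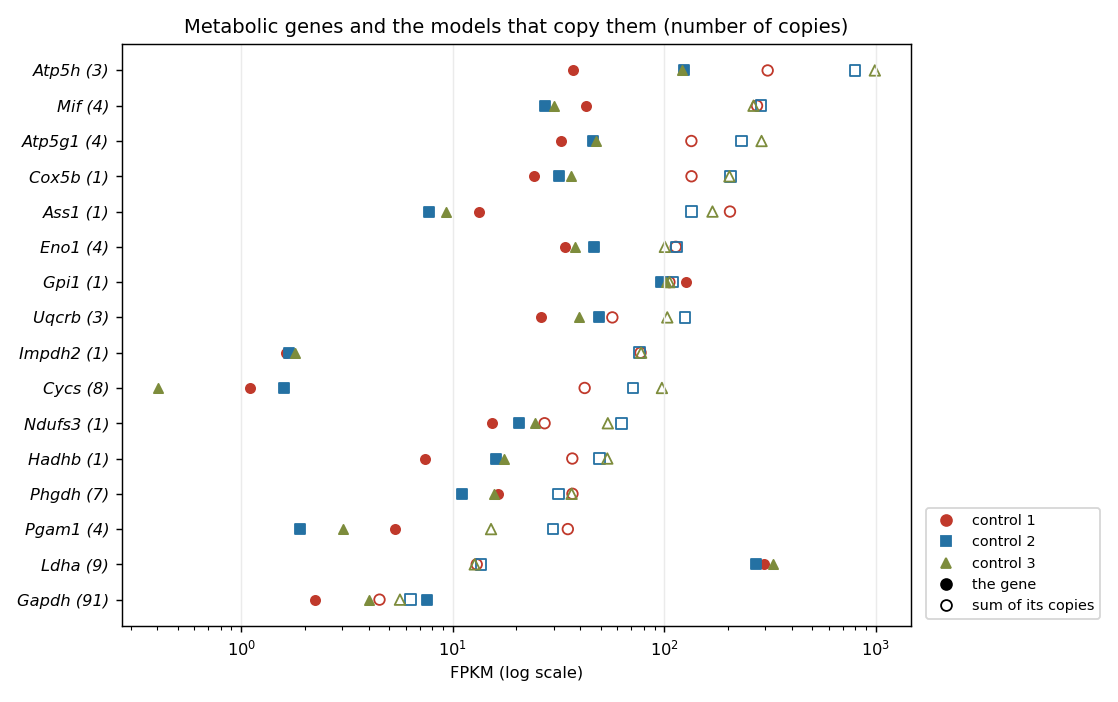
FPKM on a log scale of 16 metabolic and related genes (filled symbols) and the summed FPKM of gene models at least 90% identical to each (open symbols, number of copies in parentheses), for each control library. For Impdh2, Cycs and Pgam1 the copies lie far above the gene, for Ldha far below it, and for Gapdh both lie under 10 FPKM.

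Supporting pathways were broadly present. All 30 genes of nucleotide and redox metabolism were expressed (median 18.7 FPKM), led by the glutathione peroxidase gene Gpx1 with 274, 371 and 532 FPKM, by Sod1 and by Prdx2 and Txn1. The pentose phosphate pathway had 7 of 8 genes expressed (87.5%), and Taldo1 was level at 111, 117 and 118 FPKM. Of fatty acid and cholesterol synthesis 20 of 23 were expressed (87.0%) at a median of 5.91 FPKM. Acly, which makes cytosolic acetyl-CoA, led with 72.7, 53.4 and 56.6 FPKM, followed by Elovl1 and Fasn. Amino acid, one-carbon and polyamine metabolism had 21 of 27 expressed (77.8%), led by Glud1 with 122, 87.1 and 133 FPKM, with the glutamine transporter gene Slc1a5 and Odc1 also among its leaders. Arg2 and Ido1, enzymes that deplete arginine and tryptophan, were silent.

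**Figure D5:**
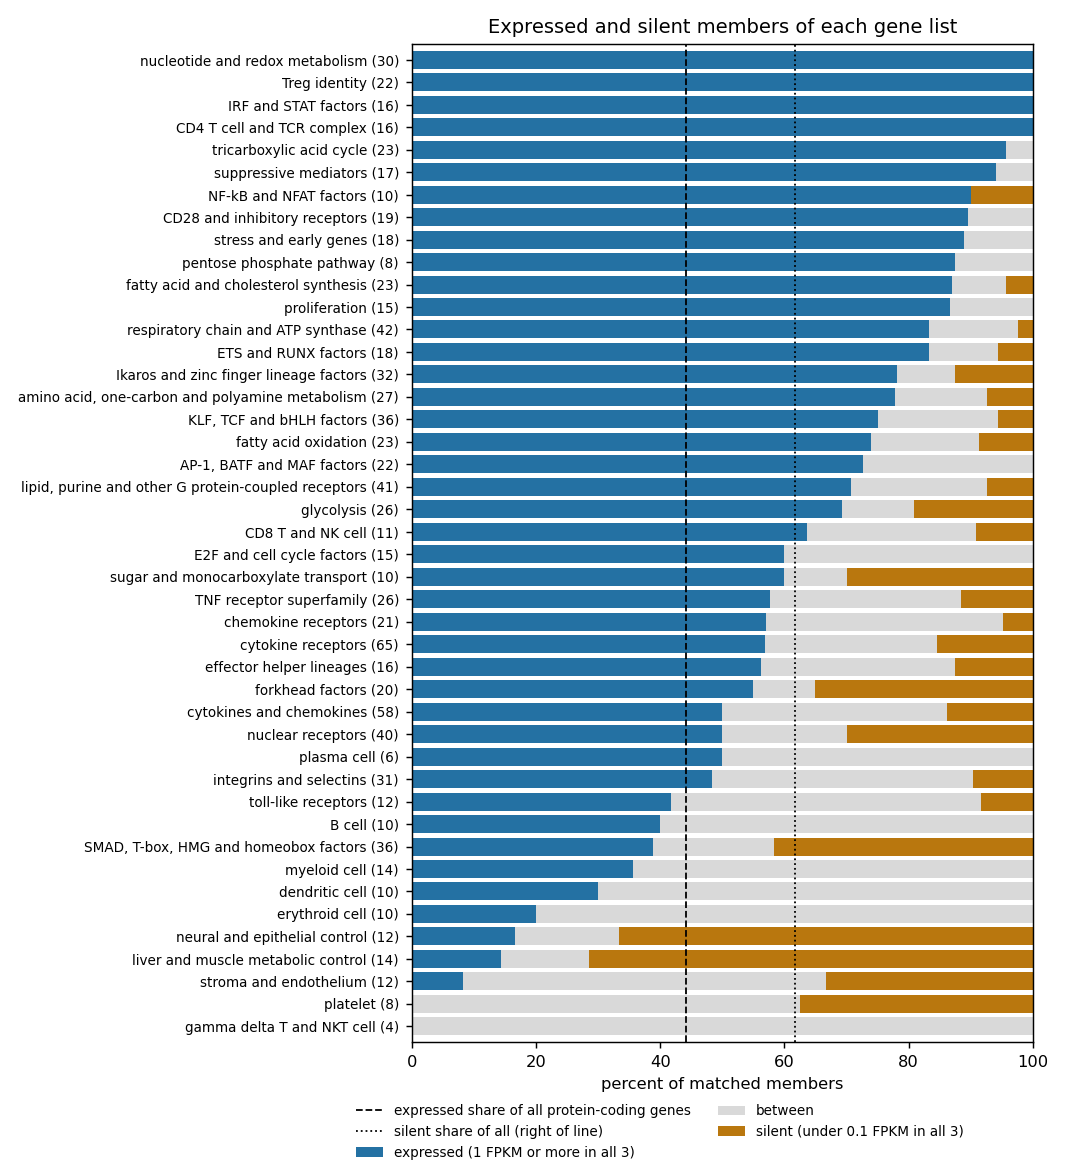
Share of matched members (number in parentheses) of each of 44 gene lists that were expressed, silent or between, with lines at the shares over all protein-coding genes (44.1% expressed, 38.3% silent). The lists of Treg identity, T cell receptor, IRF and STAT factors and nucleotide metabolism are expressed in full, and liver, muscle, neural and epithelial genes are mostly silent.

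Of the lists from unrelated tissues, those of liver and muscle and of neural and epithelial cells were silent more often than the 38.3% of all protein-coding genes. Of 14 liver and muscle genes 10 (71.4%) were silent and 8 of these were at 0, and of 12 neural and epithelial genes 8 (66.7%) were silent and 6 at 0. Ucp2 and Ckb were the expressed members of the former list. Mbp, which encodes myelin basic protein and from which haematopoietic cells make other transcripts, had 43.4, 29.5 and 30.3 FPKM in the latter. Syp, the other expressed member of that list, had 4.79, 5.63 and 5.76 FPKM. Of 12 stroma and endothelium genes 4 were silent (33.3%), below the share of all protein-coding genes, and Pecam1, an adhesion molecule that leukocytes also carry, was the expressed one with 51.8, 63.1 and 49.9 FPKM. Of 8 platelet genes 3 were silent (37.5%), with Pf4 and Ppbp at 0, and none was expressed. The highest was the integrin chain Itga2b with 0.283, 1.06 and 2.36 FPKM, and the 8 genes together stayed at or below 2.80 FPKM in each library.

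Markers of other blood cells were not absent. The B cell, CD8 T and NK, myeloid, dendritic and erythroid lists had medians of at most 3.36 FPKM in control 2 and 3. In control 1 the medians of these lists reached 11.05 FPKM. The 10 B cell markers summed to 38.5, 28.9 and 28.1 FPKM, and Cd79b alone gave 17.6, 21.3 and 20.6 FPKM of this. The 11 genes of CD8 T and NK cells summed to 112, 80.0 and 123 FPKM, of which Nkg7, also made by activated T cells, had 56.7, 44.3 and 77.1 FPKM. The 14 myeloid markers summed to 180, 14.6 and 24.2 FPKM, and 13 of them were over 2-fold higher in control 1 than in both others. The macrophage lysozyme gene Lyz2 had 28.9, 1.27 and 3.73 FPKM. The 10 dendritic cell markers summed to 248, 91.9 and 115 FPKM with 6 over 2-fold higher in control 1. The share over all genes with at least 1 FPKM in any library was 6.35%. Siglech, of plasmacytoid dendritic cells, had 55.8, 0.147 and 0.471 FPKM, while Bst2, an interferon-induced gene that T cells also make, gave 102, 76.4 and 96.6 FPKM of the sum. No myeloid or dendritic marker was silent by the rule over all 3 libraries, but for some this rested on control 1. Cd209a (6.92 FPKM in control 1), Csf3r (1.25 FPKM) and Mpo (0.203 FPKM) were listed at 0 in control 2 and 3. The 10 matched erythroid genes summed to 49.5, 6.65 and 8.29 FPKM.

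Control 1 stood apart well beyond these markers. Of 11118 genes with at least 1 FPKM in any library, 706 (6.35%) were over 2-fold above both other libraries in control 1 and 572 (5.14%) below them, counted on FPKM + 1. The counts were 30 (0.27%) above and 29 (0.261%) below for control 2, and 44 (0.396%) above and 21 (0.189%) below for control 3. With TPM the counts of control 1 were 2884 above and 77 below, so that the share above among the genes apart went from 55.2% to 97.4%. All 706 stayed over 2-fold above with TPM, and all 572 stayed lowest in control 1 but 75 stayed over 2-fold below. The 5 genes farthest above in control 1 were Siglech, Klk1, Cdkn1a, Atf3 and Pltp. Cdkn1a, the cell cycle inhibitor p21, had 32.6, 0.377 and 0.453 FPKM. Atf3, a stress-induced factor, had 53.5, 0.661 and 1.77 FPKM. The 5 farthest below were unnamed or pseudogene-like models (Gm4956, Gm10197, Gm10401, Gm10800 and Rpl17-ps3).

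Of 15 proliferation genes 13 were expressed (86.7%), with a median of 8.96 FPKM, and 5 were over 2-fold higher in control 1 (11 with TPM). The shares over all genes tested were 6.35% on FPKM and 24.6% with TPM. The replication clamp gene Pcna led with 51.4, 68.8 and 45.8 FPKM, although its 1 near-identical copy was higher, at 127, 120 and 129 FPKM, which leaves its level uncertain. Mcm5, Mcm3 and Mcm2, of the replicative helicase, followed with medians of 19.2 to 23.3 FPKM. Mki67, which encodes Ki-67 and was chosen after its values were seen, had 17.8, 2.37 and 3.48 FPKM and was highest in control 1.

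Signal-induced genes were among those that set control 1 apart. Of 22 AP-1, BATF and MAF factors 8 were over 2-fold higher in control 1 on FPKM and 15 with TPM. With TPM the share over all genes was 24.6%, as 2884 of 11706 genes were over 2-fold higher in control 1. Among genes with at least 1 FPKM in any library, the base of the 6.35% above, the FPKM counts were 48 of 184 transcription factors (26.1%), 31 of 163 receptors (19%) and 17 of 190 metabolic genes (8.95%). Nr4a1 and Junb are described above, and Fosb had 169, 42.9 and 26.1 FPKM. Not every induced gene was higher there. Fos and Jun had their highest FPKM in control 2, though in control 1 with TPM. The heat shock gene Hspa1a, with 3.61, 41.3 and 12.6 FPKM, was lowest in control 1 on both scales. Its near-identical neighbour Hspa1b, with 7.73, 121 and 42.3 FPKM, was likewise lowest there, and the split of reads between them is uncertain. The raised factors moved together with the myeloid and dendritic markers, with Irf8 (60.8, 12.3 and 13.7 FPKM) on the latter list. They also moved with the estimated depth of the library, and the part of each in these differences was not tested. Among the 22 Treg identity genes 1 was over 2-fold higher and 2 were lower in control 1 on FPKM, but 6 were higher and 0 lower with TPM.

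For control 2 and control 3 the few genes farthest from the other libraries were mostly short, unnamed or of multigene families. Those farthest above in control 2 were Ndufb8, Hist1h2an, Hspa1a, Gpsm2 and Hist1h4n, and those farthest below were Gm20418, H2-DMb1, Gm10509, 6530403G13Rik and Mybl2. The cell cycle factor Mybl2 had 2.92, 0.458 and 3.08 FPKM. In control 3, A530021J07Rik, Zfp738, Gm10125, Gm20496 and 1810012P15Rik were farthest above and mt-Nd3, Lst1, Nebl, Gm10925 and Gm17379 farthest below. The mitochondrial gene mt-Nd3 had 4.20, 4.23 and 0 FPKM beside mt-Nd1 at rank 20 by median.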

How the data were processed

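The authors sequenced strand-specific poly(A) libraries and deposited FPKM per gene, for which the submitters' processing notes name the mm9 genome, the aligner TopHat2 2.2.1 and Cufflinks. How reads with several matches were treated, and any further scaling between libraries, are not given in the sources used here. Only the 3 control columns were used here. The column of control 1 was assigned by elimination, since its sample name carries no number. All 37305 identifiers were found in the GENCODE annotation (release vM1), which gave positions and gene types. The name column disagreed with the annotation for 25 identifiers, some of them spelled as dates. Gene lists held 885 genes, of which 871 were matched, 16 of them by an older name in RefSeq, 9 were not found and 5 had a name shared by several models. The members and lists were chosen with earlier results of these data known. The rule named the 20 highest models, the 25 highest factors, 4 leaders and silent members of each list, all identity genes, and 5 genes per library and direction. Some genes that this rule names are left out of the text and figures. No test was run, and no paired analysis was possible because no groups were compared. Copies were found with blastn 2.17.0 (megablast, at least 90% identity over 50% of the model, overlapping loci left out). Counting was tested on simulated data. Python 3.11.15, numpy 2.4.6, pandas 2.3.3 and matplotlib 3.10.9 were used.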

Additional observations from a re-analysis of the deposited data

How the results depend on the processing

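The counts of expressed and silent genes, and those over all lists, stayed within 1.5 times of the reported values under every alternative run except 1, the count of silent genes over all gene types, which was 20746 of 37305. Leaving out each library in turn gave 9988 to 10063 expressed genes, 8770 to 9443 silent genes and 567 to 583 expressed list members. Counts of genes over 2-fold apart depended on scaling and on low values. With TPM they were 2884 above and 77 below for control 1, 60 below for control 2, and 28 above and 57 below for control 3. With a pseudocount of 0.1 FPKM they were 71 above and 193 below for control 2 and 122 above and 143 below for control 3. With at least 5 FPKM in any library they were 12 above and 13 below for control 2 and 23 above and 6 below for control 3. Median-ratio scaling left all 6 counts within 1.5 times, but its factors were 0.996, 1.012 and 0.999, so it hardly changed the values. Dropping the filter on low values could not change the counts. A gene over 2-fold apart on FPKM + 1 already has over 1 FPKM in some library. Leaving out a library was not possible for these counts, which set 1 library against both others. Of 42 single lists with an expressed member, the expressed count stayed within 1.5 times under every alternative except a minimum of 5 FPKM, where 30 did. No paired analysis was possible because no groups were compared. Low values in control 2 and 3 rest on few fragments, about 0.106 and 0.150 FPKM each on a transcript of 1 kilobase, so that a gene silent there may be below detection.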
